A study of Caenorhabditis elegans with 36 samples.

Results

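The genes described here are those whose name begins with *col-*, taken by name alone as cuticle collagen genes. Of 156 such genes in the WBcel235 annotation, all protein coding, 155 were matched by sequence name to the 45904 gene names counted in each library, and *col-127* was not matched. They were followed in whole day 1 adult *Caenorhabditis elegans* of the wild-type strain N2 and of *mut-16(pk710)* mutants (strain NL1810, N2 background), raised from synchronized L1 larvae at 20°C or 25°C. Each of the 4 groups had 3 libraries of poly(A)-selected mRNA and 3 of size-selected small RNAs of 18 to 30 nt, described by the study as biological replicates of 8000 animals. The harvest came about 68 h into culture for the cooler animals but at about 48 h for those kept at 25°C. Temperature and harvest time therefore cannot be told apart. Because whole animals were used, a change in the amount of a tissue and a change in RNA per cell cannot be told apart either. The share of males and the exact stage in each library are not given in the sources used here. Effects of the *mut-16* mutation therefore cannot be told apart from differences in these between the genotypes.

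Cuticle collagens are short secreted chains built around glycine-X-Y repeats. The hypodermis makes them, trims and cross-links them, and lays them down as the exoskeleton, with bursts of synthesis before each molt and different genes used at different larval stages and in the adult. MUT-16 is the scaffold protein of Mutator foci, germ cell compartments in which RNA-dependent RNA polymerases make small interfering RNAs on target transcripts. The question for these genes was how their mRNA, and the small RNAs assigned to them, differed with temperature and with loss of *mut-16*.

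The coding stretches below are shown because the repeat is what most members share, with the glycine codon that opens each triplet in capitals, read 5′ to 3′ from the WBcel235 genome within a single exon of the longest repeat run. They belong to *col-19* (chrX:422215-422304, plus strand), a marker gene of the adult cuticle, and to *col-71* (chrII:3500312-3500401, minus strand), the member with the most small RNA.
col-19 coding: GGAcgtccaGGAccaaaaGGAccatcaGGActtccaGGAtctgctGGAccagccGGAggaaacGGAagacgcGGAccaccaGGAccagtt
col-71 coding: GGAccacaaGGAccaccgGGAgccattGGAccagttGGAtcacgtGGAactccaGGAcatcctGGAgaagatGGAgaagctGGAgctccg

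Over the 156 annotated coding sequences, the median member encoded 304 amino acids with 51 Gly-X-Y triplets in runs of at least 3, a longest run of 21 triplets and 8 cysteines. The members at the edges were *col-135* (660 amino acids, 198 triplets, no cysteine) and *col-99* (735 amino acids, 132 triplets), while the annotated frame of *col-17* held no triplet run. Whether each member taken by name is part of the cuticle was not tested. Many members are near copies of each other. In 34 of 156, at least 20% of the 31-base words of the transcript also occurred in another gene, among them *col-12* and *col-13* (70.2% and 82.8%), *col-117* (96.4%), *col-168* (95.5%), *col-62* (90.6%) and *col-92* (83.8%). Salmon divides reads of such copies by estimation, so the split between them is uncertain.

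The 250 bases upstream of the annotated gene start are shown for 4 members on which the mRNA results turn, the highly expressed *col-19* (chrX:421457-421706, plus strand) and *col-124* (chrIV:10216201-10216450, plus strand) and the strongly responding *col-129* (chrIV:12110440-12110689, minus strand) and *col-81* (chrII:11013768-11014017, minus strand). Capitals mark matches on either strand to GATAA, the core recognised by GATA factors such as ELT-1 and ELT-3 of the hypodermis, AGGTCA, a nuclear hormone receptor half-site, and TTTCNCTTT, the motif of the transcription factor BLMP-1.
col-19 upstream: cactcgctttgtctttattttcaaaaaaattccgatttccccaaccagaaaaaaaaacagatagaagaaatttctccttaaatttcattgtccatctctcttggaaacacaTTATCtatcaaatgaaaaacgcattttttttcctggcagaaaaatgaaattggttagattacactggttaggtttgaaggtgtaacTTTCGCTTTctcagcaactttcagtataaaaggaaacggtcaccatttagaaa
col-124 upstream: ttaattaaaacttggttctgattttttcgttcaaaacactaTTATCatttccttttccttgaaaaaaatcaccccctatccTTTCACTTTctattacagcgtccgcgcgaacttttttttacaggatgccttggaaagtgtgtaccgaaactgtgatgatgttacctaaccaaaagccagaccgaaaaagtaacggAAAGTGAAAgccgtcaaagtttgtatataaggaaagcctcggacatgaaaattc
col-129 upstream: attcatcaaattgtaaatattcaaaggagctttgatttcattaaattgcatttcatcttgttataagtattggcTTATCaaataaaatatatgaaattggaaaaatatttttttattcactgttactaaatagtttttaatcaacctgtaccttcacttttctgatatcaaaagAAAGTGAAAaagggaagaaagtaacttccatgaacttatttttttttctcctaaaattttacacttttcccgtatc
col-81 upstream: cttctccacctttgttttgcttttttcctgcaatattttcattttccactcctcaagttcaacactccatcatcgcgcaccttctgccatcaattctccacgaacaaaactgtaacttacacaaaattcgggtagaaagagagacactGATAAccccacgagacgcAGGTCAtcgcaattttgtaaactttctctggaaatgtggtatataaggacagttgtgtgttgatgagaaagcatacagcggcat

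GATAA was present upstream of 59.0% of the 156 members and of 52.2% of all 19972 protein-coding genes, AGGTCA of 12.2% and 7.1%, and TTTCNCTTT of 10.3% and 6.9%. The windows shown do not stand for all members. The highly expressed *col-119* had no match to any of these motifs, and *col-140* had none to TTTCNCTTT. All windows were read as letters only, and a match is no evidence of binding.

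An mRNA library held 15432009 to 34195602 counts, a small RNA library 4760502 to 19060841. Reads on *mut-16* itself were lower in both mutant groups, 40.6 to 64.3 RPM (a gene's counts per 1000000 counts of the library) against 105.1 to 126.5 RPM in wild-type, and whether the pk710 allele lowers its mRNA is not stated in the sources used here. All 11 hypodermis markers were detected, and their summed level was 373 to 461 RPM in wild-type animals at 20°C and 653 to 781 RPM at 25°C, then 531 to 675 RPM in the mutant at 20°C and 716 to 1331 RPM at 25°C. One library stood apart in this last group. In *mut-16* at 25°C replicate 1 the hypodermis markers reached 1331 RPM against 718 and 716 RPM in the others, and the 6 yolk genes 48908 RPM against 29470 and 29985 RPM. Replicates 2 and 3 of the same group differed least of all replicate pairs, with a chi-square per degree of freedom of 1.63 against 3.15 to 46.1 for the others, which is above sampling noise, so they were counted as 2 libraries. Repeat libraries of 1 culture could also differ by this much, so whether they came from separate cultures was not tested, and n = 3 in this group rests on the labels.

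The summed mRNA level of the *col-* genes was higher at 25°C in both genotypes and higher in *mut-16* at both temperatures. In wild-type it was 7724, 9332 and 9807 RPM at 20°C against 17089, 19362 and 20544 RPM at 25°C. Mutant libraries held 16163, 18878 and 19949 RPM at 20°C against 37555, 39027 and 40421 RPM at 25°C. Wild-type at 25°C and *mut-16* at 20°C overlapped, and every other pair of groups was separate. The 155 genes took 0.895% of all mRNA counts of wild-type animals at 20°C and 3.90% of those of the mutant at 25°C. Group means were 8954 ± 1091 RPM in wild-type at 20°C and 18999 ± 1756 RPM in wild-type at 25°C (SD, n = 3), a ratio of 2.12. In *mut-16* they were 18330 ± 1952 and 39001 ± 1434 RPM (SD, n = 3), a ratio of 2.13. The mutant against wild-type gave a ratio of 2.05 at each temperature. Each of these 4 comparisons reached p = 0.1 in an exact two-sided permutation test, the smallest value that 3 libraries against 3 allow. The 10 highest members carried 64.8% of the wild-type sum at 20°C and 58.6% of the mutant sum at 25°C.

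**Figure D1:**
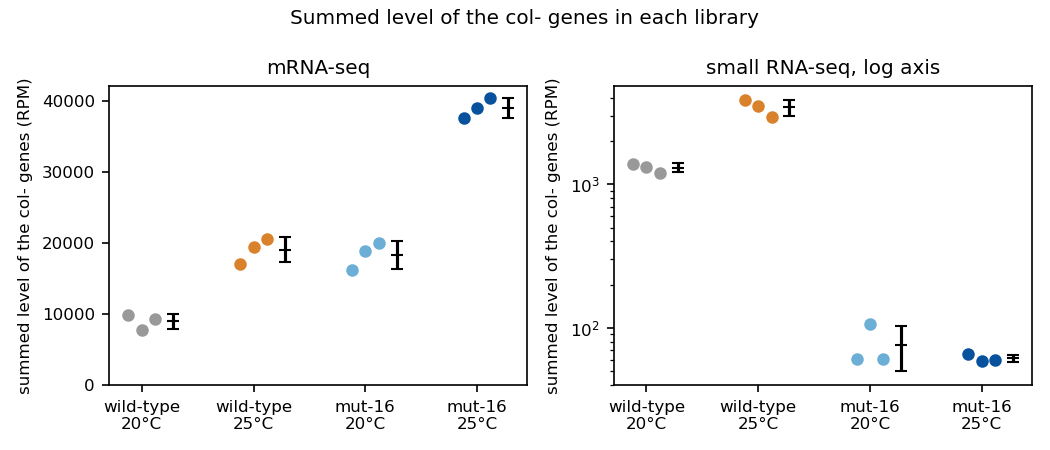
Summed level of the 155 *col-* genes (RPM) in each of the 12 mRNA libraries (left, linear axis) and the 12 small RNA libraries (right, log axis), with points for libraries and black bars for the group mean and SD (n = 3). The mRNA sum was 2.12 times higher at 25°C in wild-type and 2.13 times in *mut-16* (2.10 and 1.71 times with TMM scaling). The small RNA sum was 61.3 to 76.2 RPM in the mutant groups against 1309 to 3430 RPM in wild-type.

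Per kb of exon, the members with the highest mean mRNA level over the 12 libraries were *col-119* (1713 RPM per kb), *col-140* (1710), *col-124* (1474), *col-20* (1440), *col-178* (1408), *col-93* (1170), *col-122* (1155) and *col-19* (1124 RPM per kb). At the other end, 39 of 155 members were too low to be tested, each with a mean of at most 0.241 RPM. The remaining 116 entered the fit of all 14623 mRNA genes, an edgeR quasi-likelihood model with TMM scaling and Benjamini-Hochberg adjustment over all genes, in which adjusted p under 0.05 counted as a change.

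In wild-type, 69 of the 116 members tested rose at 25°C and 0 fell, against 22.6% of all genes tested that rose and 9.78% that fell. Their median log2 fold change was 1.06, beside 0.09 over all genes. All 27 members with a mean of at least 100 RPM rose, by 0.59 to 2.56 on the log2 scale, while of 25 members under 1 RPM 2 rose.

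The adult collagen gene *col-19* was measured at 571, 418 and 496 RPM in wild-type at 20°C and at 878, 1044 and 1103 RPM at 25°C. The groups did not overlap, and the log2 fold change was 1.01 ± 0.11 (SE, adjusted p = 3.52e-06, edgeR). For *col-124*, levels were 614, 524 and 593 RPM at 20°C and 1290, 1465 and 1603 RPM at 25°C, a log2 fold change of 1.32 ± 0.09 (adjusted p = 2.25e-08). The most abundant members per kb gave similar values. *col-119*, at the top of the order, was measured at 898, 633 and 823 RPM at 20°C and at 1447, 1563 and 1685 RPM at 25°C (0.98 ± 0.11), and *col-140* at 803, 588 and 850 RPM and at 1444, 1692 and 1740 RPM (1.10 ± 0.11). The log2 fold changes of *col-20*, *col-178*, *col-93* and *col-122* were 1.07 ± 0.11, 1.11 ± 0.11, 1.30 ± 0.11 and 0.93 ± 0.11, with separate groups in each. *col-178* and *col-93* share 45.3% and 62.6% of their 31-base words with other genes.

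A smaller set rose further with heat. *col-129* was measured at 26.9, 24.9 and 23.2 RPM in wild-type at 20°C and at 95.5, 118.4 and 148.2 RPM at 25°C. Its log2 fold change was 2.26 ± 0.12 (adjusted p = 3.8e-09). *col-139* gave 19.1, 19.2 and 19.1 RPM at 20°C and 80.5, 92.1 and 120.6 RPM at 25°C, with a log2 fold change of 2.34 ± 0.12. The corresponding values were 2.29 ± 0.14 for *col-81* and 2.56 ± 0.13 for *col-92*, all separate between the temperatures. *col-117* showed 3.11 ± 0.88 with one library at 3.19 RPM and the others at or near 0 at 20°C, shares nearly all its sequence with *col-3*, and lost the call without either wild-type 20°C replicate 1 or 2 or either wild-type 25°C replicate 2 or 3, and with DESeq2.

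In *mut-16*, 73 members rose at 25°C and 1 fell, against 40.2% and 32.3% of all genes tested, so the background of change was far wider in this comparison. The median was 0.62 beside 0.15 over all genes. In both genotypes together, 57 members rose with heat, and the share of all genes that did so was not counted. With total counts in place of TMM, 92 rose and 0 fell, the member median became 0.93 and the median of all genes moved from 0.15 to 0.46.

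*col-129* stood at 288, 345 and 309 RPM in the mutant at 20°C and reached 948, 1034 and 1067 RPM at 25°C, the highest levels in any group, with a log2 fold change of 1.38 ± 0.12 (adjusted p = 2.09e-07, edgeR). *col-149* rose from 20.77, 22.86 and 16.98 RPM to 93.3, 84.9 and 88.9 RPM, by 1.83 ± 0.14. The largest change of a named member in this comparison was that of *col-150*, at 1.91, 2.43 and 2.43 RPM and then 10.9, 12.7 and 14.1 RPM, a log2 fold change of 2.16 ± 0.16. *col-99*, the one member that fell, had 1.63, 1.22 and 1.85 RPM at 20°C and 1.81, 0.787 and 0.848 RPM at 25°C. These values overlap, and the log2 fold change of -0.91 ± 0.29 (adjusted p = 0.0107) was no longer called without mut-16 20°C replicate 3, without mut-16 25°C replicate 2 or 3, or with total counts as the scaling.

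**Figure D2:**
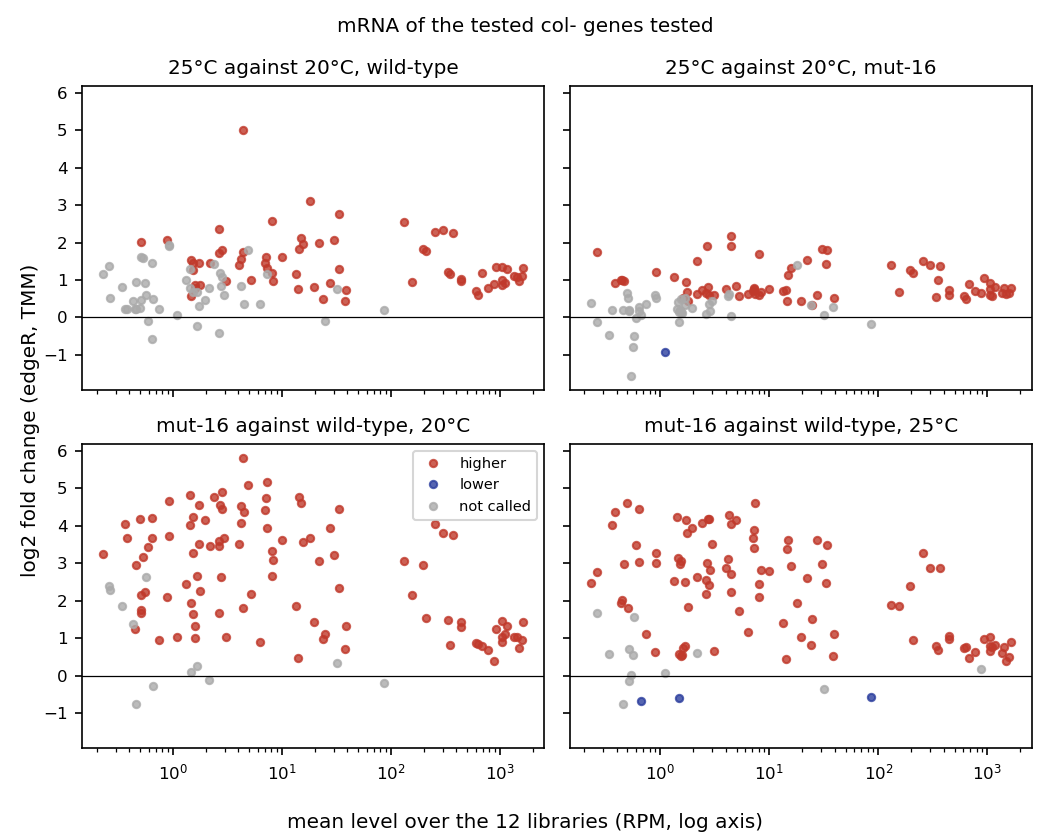
Log2 fold change of mRNA (edgeR, TMM scaling) of the 116 tested *col-* genes against their mean level over the 12 libraries (RPM, log axis), in 4 panels for the 4 comparisons. Red points rose, blue points fell and gray points were not called at adjusted p under 0.05. With heat, the 27 members at or above 100 RPM lie between 0.59 and 2.56 in wild-type and between 0.51 and 1.51 in *mut-16*. The largest mutant changes at 20°C lie among members of 1 to 10 RPM, whose median was 3.47.

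The widest change was that between *mut-16* and wild-type, in which stage or share of males may also have differed. At 20°C, 104 of the 116 members rose in the mutant and 0 fell, against 25.9% and 11.2% of all genes tested, and 90 of them rose at least 2-fold. The median log2 fold change was 2.36, beside 0.11 over all genes. With 14 members that were at or under 3 counts in every wild-type library set to their lower bounds, it was 2.12. Members that passed the filter only through the mutant libraries had to differ, so the median describes those that passed and not all members. Over the 57 members that reached 10 counts or more in all 12 libraries it was 1.28 at 20°C and 1.12 at 25°C, and over all 155 members with no filter 2.02 and 1.61. At 25°C, 101 rose and 3 fell, against 41.1% and 32.6% of all genes tested, with a median of 1.97 beside 0.16. The members that rose at both temperatures numbered 98, and 56 rose in all 4 comparisons. The shares of all genes that met these joint conditions, or rose at least 2-fold, were not counted.

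The size of the change varied with the level, given here as a description with no test. The level is the mean over all 12 libraries, mutant ones included, so it is not independent of the change. The 27 members of at least 100 RPM had a median log2 fold change of 1.25 in *mut-16* at 20°C, the 18 of 10 to 100 RPM 2.10, the 46 of 1 to 10 RPM 3.47 and the 25 under 1 RPM 2.38 (1.86 with the lower bounds). In *col-19*, levels of 754, 882 and 946 RPM in *mut-16* at 20°C stood against 571, 418 and 496 RPM in wild-type, a log2 fold change of 0.89 ± 0.11 (adjusted p = 7.48e-06, edgeR). The top 2 members per kb rose less in the mutant, *col-119* to 1090, 1305 and 1317 RPM (0.75 ± 0.11) and *col-140* to 1196, 1457 and 1430 RPM (0.95 ± 0.11). At 25°C their log2 fold changes were 0.39 ± 0.11 and 0.49 ± 0.11. Within the class of at least 100 RPM the log2 fold changes at 20°C ran from 0.40 to 4.05. Larger changes were seen in members that were low in wild-type at 20°C. *col-81* rose from 11.7, 12.8 and 15.5 RPM to 182, 227 and 217 RPM, by 4.05 ± 0.15 (adjusted p = 1.07e-11), and *col-129* by 3.74 ± 0.13. *col-139* rose from 19.1, 19.2 and 19.1 RPM to 229.6, 275.6 and 251.3 RPM, by 3.81 ± 0.13.

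Several members that were low at 20°C in wild-type animals rose in all 4 comparisons. *col-147* was measured at 1.27, 1.46 and 0.823 RPM in wild-type at 20°C, 5.34, 7.69 and 10.7 RPM at 25°C, then 21.2, 27.0 and 23.4 RPM in the mutant at 20°C and 96.1, 106.7 and 104.1 RPM at 25°C. The 4 groups were separate, with log2 fold changes of 2.76 ± 0.25 for heat in wild-type and 4.45 ± 0.23 for the mutant at 20°C. *col-147* shares 41.5% of its 31-base words with other genes, most with *col-146*. *col-180* showed the same order of groups at lower levels, 0.470 to 0.778 RPM, 3.11 to 3.98 RPM, 5.27 to 5.81 RPM and 21.2 to 23.6 RPM. *col-159* did so at higher levels, 15.6 to 34.3 RPM, 76.4 to 87.1 RPM, 159 to 184 RPM and 490 to 516 RPM, and shares 46.2% of its 31-base words with other genes.

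Members that were barely detected in wild-type at 20°C were clearly detected in the mutant. *col-133* had 0.915, 0.832 and 0.681 RPM in wild-type and 20.1, 21.5 and 19.2 RPM in *mut-16*, a log2 fold change of 4.77 ± 0.18 (adjusted p = 9.92e-12, edgeR). *col-73*, which shares 33.2% of its 31-base words with other genes, went from 0.200, 0.176 and 0.469 RPM to 8.76, 10.5 and 10.1 RPM, by 5.16 ± 0.30. *col-168*, at 0, 0 and 0.113 RPM in wild-type, had 2.85, 2.48 and 2.96 RPM in *mut-16*, at least 19.1-fold higher when the wild-type level is set to 3 counts per library. It is one of 5 neighbouring genes on chromosome X, *col-167* to *col-171*, and shares 95.5% of its 31-base words with other genes.

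At 25°C *col-73* had 0.279, 0.568 and 1.10 RPM in wild-type and 18.8, 18.1 and 18.9 RPM in *mut-16*, a log2 fold change of 4.60 ± 0.24 (adjusted p = 5.3e-10, edgeR). *col-138*, *col-146*, *col-77* and *col-62* rose by 4.30 ± 0.42, 3.89 ± 0.21, 3.68 ± 0.21 and 4.14 ± 0.35, each from under 2 RPM in every wild-type library to at least 9.88 RPM in every mutant library. Of these, *col-146* and *col-62* share 54.5% and 90.6% of their 31-base words with other genes. The 3 members that fell were *col-95*, *col-53* and *col-116*. *col-95* was measured at 93.5, 111.5 and 105.4 RPM in wild-type and at 78.90, 80.03 and 80.83 RPM in *mut-16*, with no overlap and a log2 fold change of -0.58 ± 0.15 (adjusted p = 0.00319). None of the 3 was called with total counts as the scaling. With total counts 105 rose and 0 fell, and the median over all genes moved from 0.16 to 0.37. Among members with a mean of at least 10 RPM, *col-95* and *col-135* were the 2 that did not rise in *mut-16* at 20°C. The log2 fold change of *col-95* was then -0.20 ± 0.15.

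**Figure D3:**
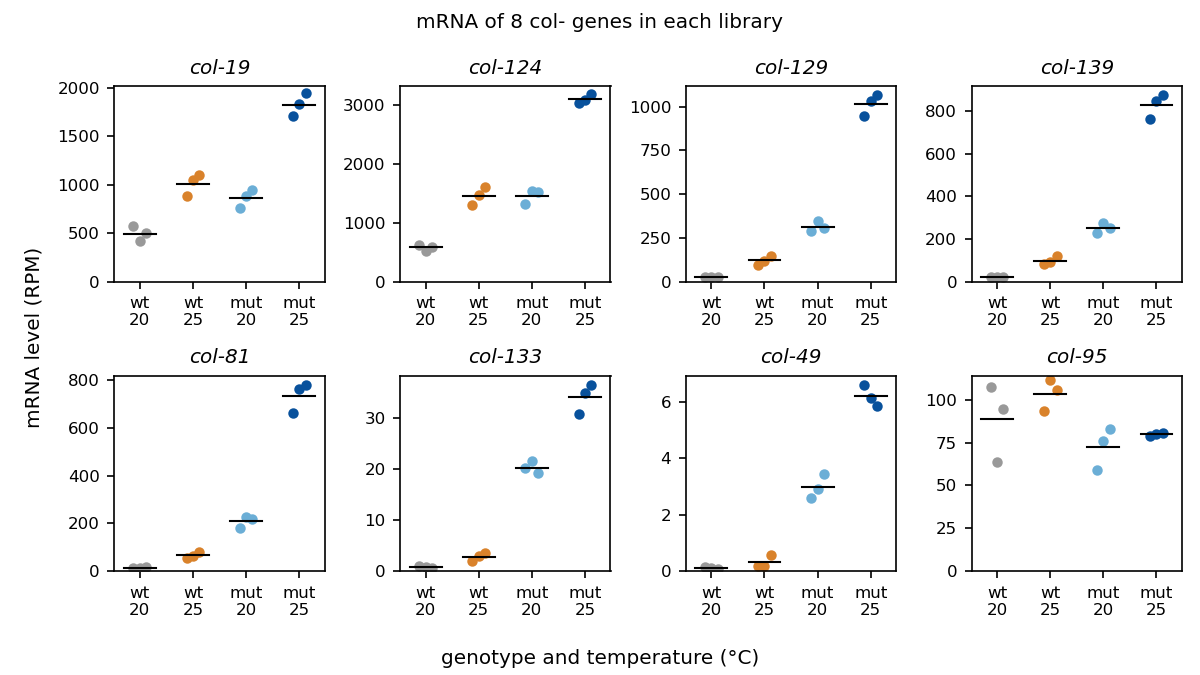
mRNA level (RPM, linear axes from 0) of 8 *col-* genes in each library, with points for libraries, black lines for group means, wt for wild-type and mut for *mut-16*, each at 20 or 25°C. *col-129*, *col-139* and *col-81* reached 663 to 1067 RPM in *mut-16* at 25°C from 11.7 to 26.9 RPM in wild-type at 20°C, while *col-95* stayed between 58.8 and 111.5 RPM in all 12 libraries.

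Beside the counts by stage given here, 25.9% of all genes tested rose in *mut-16* at 20°C and 41.1% at 25°C. By the stage at which members are known to be used, the genes listed for the L4 stage (*col-38*, *col-49* and *col-63*) rose in *mut-16* at both temperatures in 3 of 3. Their summed level was 1.55 to 2.15 RPM in wild-type animals at 20°C and 3.51 to 5.05 RPM at 25°C, and reached 13.9 to 18.7 RPM in the mutant at 20°C and 29.9 to 31.2 RPM at 25°C. *col-49* gave 0.150, 0.108 and 0.0826 RPM in wild-type at 20°C and 2.58, 2.90 and 3.43 RPM in *mut-16*, at least 20.4-fold higher with the wild-type level set to 3 counts per library. The adult genes *col-7*, *col-19* and *col-62* also rose in 3 of 3 in the mutant at both temperatures, with *col-7* going from 0.806, 0.647 and 0.373 RPM to 9.20, 8.96 and 7.85 RPM at 20°C (3.95 ± 0.24). *col-7* and *col-62* share 58.6% and 90.6% of their 31-base words with other genes, most with each other. These are therefore not 3 separate measurements. The larval gene *col-17*, which shares 32.0% of its 31-base words with other genes, rose in *mut-16* at 20°C by 2.64 ± 0.28 and at 25°C by 2.42 ± 0.22. *col-10*, *col-12*, *col-13* and *col-14*, used at several molts, all rose in the mutant at both temperatures, and their sum went from 8.46 to 9.53 RPM in wild-type at 20°C to 61.8 to 80.2 RPM in *mut-16*. *col-10*, *col-12* and *col-13* share 77.5%, 70.2% and 82.8% of their 31-base words with other genes. As *col-12* and *col-13* share most with each other, these too are not all separate measurements. The dauer gene *col-2* was called at 20°C on 1 library of 2.78 RPM against 0.467 and 0.231 RPM in the others, and lost the call when any of the wild-type 20°C replicates was left out.

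Counts for genes that act with the *col-* chains are given beside the shares of all genes tested. Of the 20 cuticle collagens with another name, such as *bli-*, *dpy-*, *rol-* and *sqt-* genes known for blistered, short or rolling animals, 17 rose and 1 fell in *mut-16* at 20°C (25.9% and 11.2% of all genes, median 3.65) and 18 rose and 0 fell at 25°C (41.1% and 32.6%). *bli-6* had 0.902 ± 0.131 RPM in wild-type at 20°C and 12.1 ± 2.50 RPM in *mut-16* (SD, n = 3), a log2 fold change of 3.82, whereas *dpy-10* fell by 0.77. Heat raised 6 of the 20 in wild-type, a share near the 22.6% of all genes, and 16 in *mut-16*, where 40.2% of all genes rose, with 0 lowered in either. Their median log2 fold change with heat was 1.25 in wild-type and 0.76 in *mut-16*, beside 0.09 and 0.15 over all genes. The 20 summed to only 12.4 to 14.5 RPM in wild-type at 20°C. Of 14 genes for processing and cross-linking, 8 rose with heat in wild-type and 0 fell (all genes 22.6% and 9.78%), and 11 rose and 2 fell with heat in *mut-16* (40.2% and 32.3%). In the mutant 7 rose and 0 fell at 20°C (25.9% and 11.2%), and 10 rose and 1 fell at 25°C (41.1% and 32.6%). Among them the prolyl 4-hydroxylase subunit *phy-2* rose with heat from 7.95 ± 1.51 to 15.5 ± 0.546 RPM in wild-type animals, while in the mutant it went from 13.7 ± 0.263 to 33.9 ± 3.20 RPM (SD, n = 3). The procollagen protease gene *dpy-31* rose in all 4 comparisons.

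Regulators of molting and stage timing were mixed. Of 21 measured, 10 rose and 0 fell in *mut-16* at 20°C, against 25.9% and 11.2% of all genes. At 25°C 12 rose and 2 fell, against 41.1% and 32.6%, where the 2 were *nhr-23*, a nuclear receptor that drives molting, and *lin-41*, a regulator of the larva to adult switch. *lin-29*, the factor that promotes the adult hypodermis, rose in all 4 comparisons, from 1.84 ± 0.336 RPM in wild-type at 20°C to 6.31 ± 0.464 RPM in *mut-16* at 25°C (SD, n = 3).

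Markers of other tissues also moved between these groups. Beside the counts below, 25.9% of all genes tested rose and 11.2% fell in *mut-16* at 20°C. At 25°C the shares were 41.1% and 32.6%. The summed level of 33 sperm genes was 6.78 to 8.57 RPM in wild-type animals at 20°C and 59.2 to 96.4 RPM at 25°C, against 316 to 427 RPM in the mutant at 20°C and 490 to 565 RPM at 25°C, and all 31 that could be tested rose in *mut-16* at 20°C. The 14 germline markers summed to 10301 to 12375 RPM in wild-type animals at 20°C and to 11490 to 11681 RPM in the mutant, with 2 lower. At 25°C the mutant had 7916 to 8388 RPM, with 14 of 14 lower than in wild-type. Of 11 hypodermis markers 6 rose and 1 fell in *mut-16* at 20°C, and 5 rose and 2 fell at 25°C. The 5 that rose at 25°C are a share near that of all genes. The summed level of the 6 yolk genes was 50558 to 58297 RPM at 20°C in wild-type animals and 41191 to 54269 RPM in the mutant. At 25°C it was 45568 to 54495 RPM in wild-type animals and 29470 to 48908 RPM in the mutant, where 5 of 6 were lower. With heat in *mut-16*, 5 of 6 were also lower, beside 32.3% of all genes. The 10 body wall muscle markers summed to 2196 to 3439 RPM and 2989 to 3250 RPM at 20°C, and to 2546 to 2722 RPM and 4228 to 4687 RPM at 25°C (wild-type, then mutant), with 2 and 7 of 10 higher in the mutant. The 2 at 20°C are a share near that of all genes. The 8 early embryo markers summed to 5.04 to 6.71 RPM in the other 3 groups and to 12.83 to 14.95 RPM in the mutant at 25°C. Only 4 of them could be tested, of which 3 rose and 1 fell in the mutant at 25°C. The part of the markers of other tissues in the collagen changes was not tested.

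Whether heat acted differently on the members in the 2 genotypes was tested as the difference of the log2 responses. It was lower in *mut-16* than in wild-type for 22 of 116 members and higher for 0, against 21.4% and 9.7% of all genes tested, a share of lower calls (19.0%) near the background. With total counts as the scaling, 5 were lower and 2 higher, the member median went from -0.44 to -0.15 and that of all genes from -0.10 to 0.19. The count was 11 without mut-16 20°C replicate 3, 13 without wild-type 25°C replicate 3 and 13 without mut-16 25°C replicate 2. *col-133*, *col-139*, *col-129*, *col-92* and *col-168* were called under every alternative in which they were tested. In *col-139* the heat response was 2.34 ± 0.12 in wild-type and 1.41 ± 0.11 in *mut-16*, a difference of -0.93 ± 0.16 (adjusted p = 0.00115, edgeR). All 22 rose with heat in wild-type, and 17 also rose with heat in *mut-16*.

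Small RNA reads on these genes were few and uneven. Of 155 members, 49 passed the filter on low counts and 106 did not, the latter with a mean of at most 0.861 RPM. The summed level was 1208, 1325 and 1393 RPM in wild-type at 20°C and 2942, 3489 and 3860 RPM in wild-type at 25°C. Mutant libraries held 60.7, 61.1 and 107 RPM at 20°C and 58.6, 59.8 and 65.6 RPM at 25°C, so the genotypes did not overlap. The mutant was 17.2-fold lower at 20°C and 56.0-fold lower at 25°C, and heat raised the sum 2.62-fold in wild-type, with p = 0.1 in each exact two-sided permutation test, the smallest possible. Without the 3 members with the most counts, the mutant was 6.56-fold and 19.6-fold lower. In *mut-16* the heat ratio was 0.804 (exact permutation p = 0.5) and 0.761 without those 3 members (exact permutation p = 0.1), and its log2 value of -0.31 became 0.009 without mut-16 20°C replicate 2, the library at 107 RPM. *col-71* alone held 35.8% of the sum in wild-type at 20°C and 40.3% at 25°C, and *col-71* with *col-111* held 56.3% and 64.0%.

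In the fit of 16025 genes, 39 of the 49 members were lower in *mut-16* at 20°C and 2 higher, against 46.8% and 33.6% of all genes tested, with a median log2 fold change of -3.31 beside -0.45. At 25°C, 44 were lower and 2 higher, against 47.1% and 31.3%, with medians of -3.81 and -0.58. With the members at or under 3 counts per library set to their bounds the medians were -2.74 and -2.66. These 49 include members that passed the filter only through wild-type libraries, 11 being at or under 3 counts in every mutant library at 20°C and 23 at 25°C, so the counts and medians do not stand for all members. With no filter, the medians over 154 members were -1.04 and -1.84, beside -0.21 and -0.48 over all genes. The members lower at both temperatures numbered 38, and the share of all genes lower at both was not counted.

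*col-71* had 517, 468 and 422 small RNA RPM in wild-type at 20°C and 3.79, 11.3 and 3.67 RPM in *mut-16*, a log2 fold change of -6.20 ± 0.36 (adjusted p = 1.16e-07, edgeR). At 25°C it had 1581, 1396 and 1172 RPM in wild-type and 7.21, 6.89 and 7.24 RPM in the mutant, a log2 fold change of -7.54 ± 0.38. *col-111* had 267.5, 274.7 and 259.3 RPM against 2.79, 5.06 and 3.28 RPM at 20°C (-6.11 ± 0.17). *col-157* had 156.4, 157.6 and 138.5 RPM in wild-type and 1.08, 3.84 and 1.09 RPM in the mutant at 20°C (-6.24 ± 0.36), and *col-45* had 76.5, 85.2 and 72.8 RPM against 0.781, 1.49 and 0.992 RPM (-6.12 ± 0.29). In both, as in *col-38* (-5.49 ± 0.18), *col-60* (-4.03 ± 0.18) and *col-131* (-6.09 ± 0.34), every mutant library lay below every wild-type library. *col-38*, the L4 gene whose mRNA rose, held 91.2, 88.0 and 68.7 small RNA RPM in wild-type and 1.84, 1.93 and 1.29 RPM in the mutant. In *col-155*, with 20.3, 16.5 and 22.4 RPM in wild-type at 20°C and 0 in all 3 mutant libraries, the mutant was at least 77.6-fold lower when set to 3 counts per library. *col-155* and *col-157* share 75.8% and 48.9% of their 31-base words with other genes, so their own levels are uncertain. Sharing of words as short as the small RNAs, 18 to 30 nt, was not measured.

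The 2 members higher in the mutant at both temperatures were *col-114* and *col-99*. *col-114* had 2.48, 1.75 and 1.53 RPM in wild-type and 4.10, 3.28 and 3.37 RPM in *mut-16* at 20°C, and 3.00, 2.83 and 2.82 RPM and 8.73, 9.50 and 9.95 RPM at 25°C. Its log2 fold changes were 1.00 ± 0.24 and 1.76 ± 0.23 (adjusted p = 0.00149 and 4.52e-06, edgeR), without overlap. *col-99*, the long collagen with 132 triplets, gave 1.05 ± 0.32 and 0.83 ± 0.34, the second lost under the replicate block and without wild-type 25°C replicate 1 or 3 or mut-16 25°C replicate 2, among other settings.

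Heat in wild-type raised small RNAs on 18 of the 49 members and lowered 3, against 20.2% and 17.0% of all genes tested. *col-162* went from 13.4, 13.8 and 11.5 RPM to 83.1, 71.9 and 58.6 RPM, by 2.58 ± 0.20 (adjusted p = 3.69e-07, edgeR), and *col-2* from 5.62, 4.45 and 4.00 RPM to 23.5, 21.7 and 23.3 RPM, by 2.38 ± 0.33. Of its 31-base words *col-162* shares 55.7% with other genes. *col-97* fell from 7.38, 8.87 and 9.52 RPM to 2.86, 3.84 and 1.69 RPM, by 1.44 on the log2 scale. The lowered count was 1 in each of 8 fits with a library left out, and with DESeq2. In *mut-16*, 2 rose and 2 fell with heat, against 8.29% and 17.3% of all genes tested. *col-114* rose by 1.43 ± 0.22 without overlap. *col-13*, the other that rose, overlapped and was at or under 3 counts in every mutant library. *col-158* fell to at most 3 counts in every mutant library at 25°C, at least 1.63-fold lower when set to 3 counts per library. The other that fell was *col-86*, which had 15.5, 39.8 and 11.6 RPM in the mutant at 20°C and 2.53, 1.66 and 1.92 RPM at 25°C, a log2 fold change of -3.37 ± 0.50 (adjusted p = 0.00051, edgeR). At 20°C it held 29.3% of the small RNA sum of the mutant, and its wild-type libraries, at 10.9 to 14.8 RPM, overlapped with the mutant. The heat difference between genotypes was lower in 8 members and higher in 0, against 12.6% and 5.7%, and between 3 and 7 members were lower when any single library was left out.

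Setting the assays side by side, 36 members were tested in both. The 39 whose small RNA fell in *mut-16* at 20°C included 29 tested in mRNA, of which 26 rose, with a median log2 fold change of 2.38. The 80 members tested in mRNA whose small RNA was too low to test had 74 that rose and a median of 2.54. The difference between these medians was not tested.

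**Figure D4:**
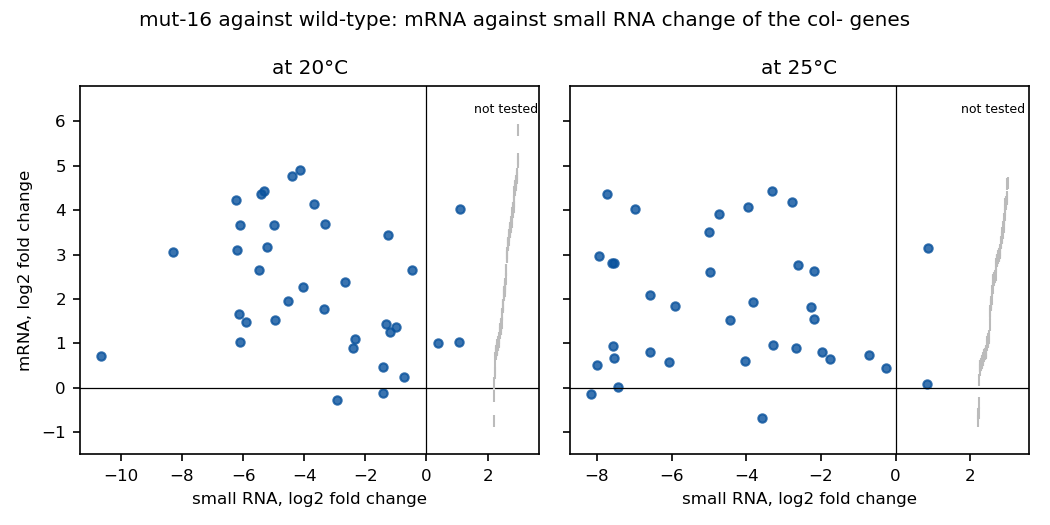
mRNA log2 fold change against small RNA log2 fold change of the *col-* genes, *mut-16* against wild-type at 20°C (left) and 25°C (right). Blue points are the 36 members tested in both assays, gray ticks at the right edge the 80 members tested in mRNA only, whose horizontal place has no meaning, and the most negative small RNA values rest on mutant libraries at or near 0 counts. Most blue points lie to the left of 0 and above 0.

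By position, 50 members lie within 10 kb of another *col-* gene, in 21 groups of up to 5. The 43 of them tested had a median log2 fold change of 2.44 in *mut-16* at 20°C, beside 2.26 for the other 73. Members with a GATAA match upstream had a median of 2.29 (67 members, 62 raised) and those without 2.38 (49 members, 42 raised). By chromosome the medians ran from 1.47 (III, 12 members) to 2.80 (I, 12 members). Members with an AGGTCA match upstream had a median of 2.96 in *mut-16* at 20°C (15 members, all raised) and the others 2.34 (101 members, 89 raised). Those with TTTCNCTTT had 1.40 (12 members, 8 raised) and those without 2.64 (104 members, 96 raised). With the 33 tested members that share at least 20% of their words left out, 72 of 83 rose in *mut-16* at 20°C and 69 at 25°C.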

How the data were processed

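The *col-* genes were taken in mRNA-seq and small RNA-seq of whole adults, 12 libraries each. The authors trimmed reads with Cutadapt and estimated expected counts per gene with Salmon on the WS258 transcriptome (reads were also mapped to the genome with HISAT2), and deposited these estimates without normalization. Versions, strand and length settings are not given in the sources used here. Each table held 46970 entries for 45904 names, and repeated names were summed. Counts were rounded. edgeR 4.0.16 (R 4.3.3) fitted all 12 libraries of an assay, with filterByExpr, TMM, one coefficient per group and a robust quasi-likelihood test, and Benjamini-Hochberg adjusted p under 0.05 was called. A standard error is the log2 fold change divided by the root of the F statistic. Sums were compared by exact permutation tests. Groups follow the labels, and replicates enter unpaired, since no pair set had every same-number correlation over 0.1. Coordinates, coding sequences and upstream windows come from the WBcel235 annotation and genome, and proteins were translated from the coding sequences, in place of the RefSeq proteins first planned. A member was named if it belonged to a stage group, was among the 8 with the highest mRNA level per kb or the 8 with the highest small RNA level, or was among the 6 largest called changes per direction in an mRNA comparison (at least 10 RPM) or the 4 in a small RNA comparison (at least 1 RPM), without overlap. *col-53*, *col-116* and *col-135* were named after their values were seen. The members and lists were chosen with earlier results of these data known. Alternatives were DESeq2 1.42.0, other scaling and filters, the RE mark in titles as a covariate, the replicate block and each library left out. The procedure was tested on simulated data. One coding sequence is not reported here.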

Additional observations from a re-analysis of the deposited data

Results flagged for a closer look

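A test of the difference of the heat responses between the genotypes (edgeR, adjusted p under 0.05) marked 22 members for mRNA and 8 for small RNAs, all with a lower response in *mut-16*. These are 19.0% and 16.3% of the members tested, near the 21.4% and 12.6% of all genes tested, and so not a result about the members as a group. Among the named members in mRNA-seq, the difference (log2, *mut-16* minus wild-type) was -3.09 in *col-168*, -1.80 in *col-45*, -1.63 in *col-162*, -1.39 in *col-133*, -1.15 in *col-92*, -0.97 in *col-147*, -0.93 in *col-139*. In the others it was -0.89 in *col-180*, -0.87 in *col-129*, -0.78 in *col-81*, -0.54 in *col-124*, -0.50 in *col-93*, -0.46 in *col-140* and -0.45 in *col-178*. Of these, *col-124*, *col-178*, *col-180*, *col-140*, *col-81*, *col-45*, *col-147*, *col-93* and *col-162* lost the call with total counts as the scaling.

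In small RNA-seq the difference was -2.80 in *col-89*, -2.72 in *col-86*, -2.62 in *col-158*, -2.28 in *col-162*, -2.04 in *col-45*, -1.89 in *col-60*, -1.42 in *col-111* and -1.08 in *col-38*. All of them except *col-60* and *col-111* lost the call without at least 1 of the libraries.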

How the results depend on the processing

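Of 250 called results of named members, 209 kept their call under every alternative run, 41 lost it under at least 1 and 0 reversed. In mRNA-seq, the counts that moved by over 1.5 times were as follows. For heat in wild-type, 1 was lower with no filter. For heat in *mut-16*, 2 were lower with DESeq2, 0 with total counts, 3 with no filter, 4 with the RE mark and 0 with mut-16 25°C replicates 2 and 3 averaged, an alternative chosen after seeing the data. Requiring at least 10 counts in every library left 57 members tested, of which 52 were higher in the mutant at 20°C and 53 at 25°C, with medians of 1.28 and 1.12. Lower in *mut-16* at 25°C were 0 with total counts and 1 with that filter. The difference of responses was lower in 5 and higher in 2 with total counts, lower in 12 and higher in 1 with no filter, and lower in 6 and higher in 1 with at least 10 counts. The log2 ratio of the sum was 0.78 for heat in *mut-16* and 0.83 for *mut-16* at 25°C with TMM.

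In small RNA-seq, at least 10 counts in every library left 6 members, with 5 higher and 0 lower for heat in wild-type, 1 and 1 for heat in *mut-16*, 1 and 4 in the mutant at 20°C, 1 and 5 at 25°C, and 1 and 3 for the difference. DESeq2 gave 1 lower for heat in wild-type and 1 higher and 1 lower for heat in *mut-16*. No filter gave 5 higher in *mut-16* at 20°C. The log2 ratio of the sum was -2.71 at 20°C and -4.29 at 25°C without the 3 members with the most counts, and -6.26 at 25°C with TMM. The cause of these shifts was not tested, apart from the smaller number of members tested under the stricter filter.

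Leaving out single libraries gave, in mRNA-seq, 0 to 2 lower for heat in *mut-16*, 0 to 1 lower in *mut-16* at 20°C, 1 to 4 lower at 25°C, and 11 to 26 lower and 0 to 1 higher for the difference. In small RNA-seq it gave 1 to 3 lower for heat in wild-type, 1 to 4 higher and 1 to 2 lower for heat in *mut-16*, 1 to 2 higher in *mut-16* at 25°C, and 3 to 7 lower and 0 to 2 higher for the difference. The log2 ratio of the sum for heat in *mut-16* ran from -0.454 to 0.009, the latter without mut-16 20°C replicate 2. In libraries sharing only a replicate number, the replicate block gave 1 higher for small RNA heat in *mut-16* and 1 higher in *mut-16* at 25°C, and moved no other count by over 1.5 times. Same-number correlations lay between -0.08 and 0.19 for mRNA and between -0.13 and 0.08 for small RNAs. At these depths 106 members were too low to test in small RNA-seq, and whether deeper libraries would show them was not tested.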
